A study of Mus musculus with 48 samples.

Results

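Mature elements labelled descending are 1129 short DNA elements of a reporter assay in the embryonic mouse cortex, taken as the entries of the deposited table whose class is Mature and whose names contain seqs_desc. They make up 1129 of the 2763 Mature elements and of the 11709 elements in all. The other Mature elements carry the labels asc (321) and unc (1313), and 996 scrambled sequences (Scrambled) serve as controls. The labels and file headers do not explain the words Mature, desc, asc and unc.

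Plasmids carrying the elements were electroporated in utero into mouse embryos of the C57BL/6JRj strain, targeting the somatosensory cortex, on embryonic day (E) 12, 13, 14, 15 or 16. The cortex was collected 24 h later, at E13 to E17, and cells were fixed, stained for Pax6, Eomes (Tbr2) and Tubb3 and sorted into Tbr2-positive intermediate progenitors (IPC) and Pax6-positive neural stem cells (NSC). All groups share this strain, tissue and electroporation, and no group of sorted neurons is among the columns, so the Mature elements were read in progenitors. The 48 libraries are DNA and RNA of 24 biological samples, 2 samples of either cell type at E13, E16 and E17, and 3 at E14 and E15. The authors give 1 column of activity values per cell type and age, with no replicate number, 10 columns in all. These are called pooled here, and the spread between embryos is not known.

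A massively parallel reporter assay compares the RNA that each element drives with the plasmid DNA recovered from the same cells. An enhancer is a stretch of DNA that raises transcription of a gene in particular cells, because transcription factors present there bind it. In the developing cortex neural stem cells line the ventricle, give rise to intermediate progenitors and through them to neurons. Pax6 is a transcription factor of the stem cells, Tbr2 one of the intermediate progenitors, and Tubb3 a tubulin of neurons.

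Activity is given below as the deposited statistic divided by the median of the Scrambled controls in the same column, so that 1 is the level of a typical control. The Scrambled median itself ranged from 0.164 in NSC at E13 to 2.37 in NSC at E17. Where a log2 value is named, it is log2 of this ratio plus 0.1, which understates differences of elements far below the controls. Coordinates, sequences and neighbouring genes of these elements were not used here. The numbers that end their names run from 1 to 1261, and 832 of them also occur among unc names, while 0 occur among asc names. Elements are called below by the end of the name, such as Mature_neurons_905. The files give no depth, so the counting error behind each value is unknown.

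The typical desc element was about as active as a scrambled sequence in both cell types. In IPC the median desc activity was 1.001, 0.997, 1.02, 1.05 and 1.05 in order of age, E13 to E17. In NSC it was 0.902, 0.989, 0.995, 1.03 and 1.02 in the same order. The lowest of these 10 medians came from NSC at E13, the column with the widest spread, where the middle part of the desc elements from the 25th to the 75th percentile ran from 0.367 to 2.08, and that of Scrambled from 0.404 to 2.28. In NSC at E17, the column of narrowest spread, the same percentiles were 0.728 and 1.36 for desc elements, and 0.740 and 1.32 for Scrambled.

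Set against the controls by mean log2 activity, desc elements were above Scrambled at 5 of 5 ages in IPC, by 0.04 on average, and at 2 of 5 ages in NSC, with an average of -0.02. The SD of single elements on the log2 scale was 0.70 to 1.62 for desc elements and 0.67 to 1.60 for Scrambled, depending on the column. Against all 10713 elements that are not Scrambled, the desc mean was lower in 10 of 10 columns, by 0.09 on average in IPC and by 0.15 in NSC. With 1 pooled value per column these orders are descriptions without a test.

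**Figure D1:**
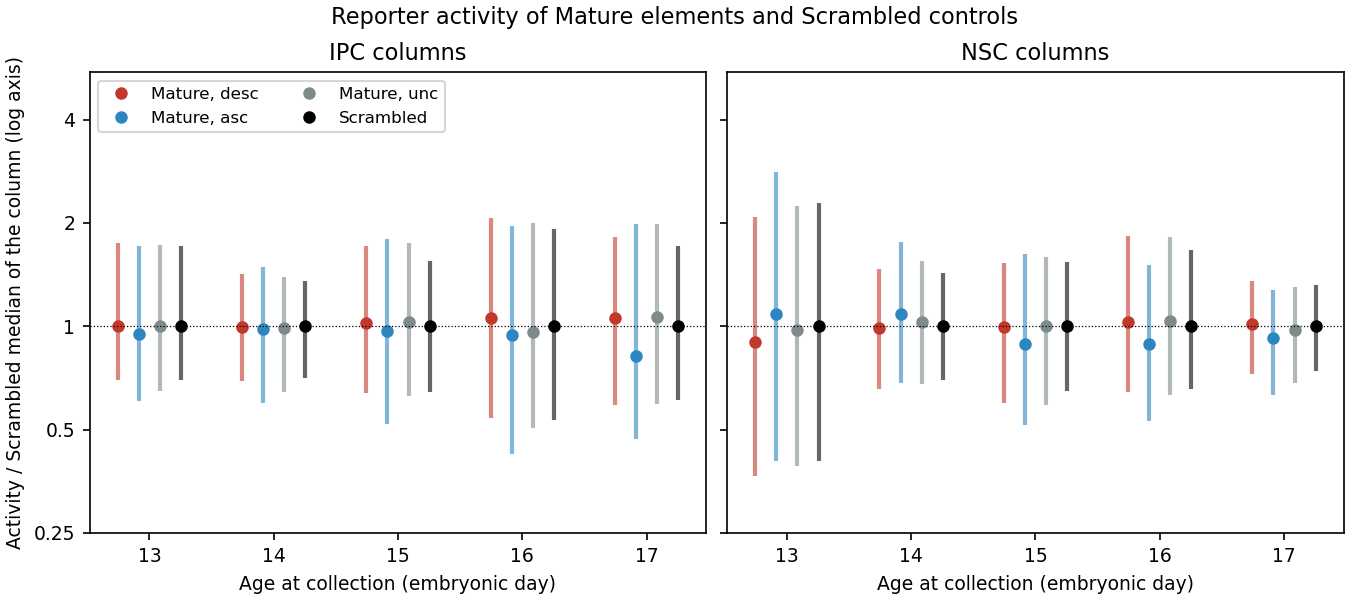
Activity relative to the Scrambled median of the column (log axis) against age at collection, for IPC (left) and NSC (right). Points are medians over elements and bars run from the 25th to the 75th percentile of elements. The desc medians lie between 0.902 and 1.05, and the bars of all 4 sets overlap in every column.

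The other labels of the Mature class differed from desc in both directions. Median asc activity in IPC was 0.947, 0.980, 0.967, 0.941 and 0.822 at E13 to E17, below the desc median at 5 of 5 ages. In NSC the asc median was 1.09, 1.08, 0.890, 0.888 and 0.924, so that it lay above the desc median at E13 and E14 and below it at the 3 later ages. Median unc activity was 1.003, 0.990, 1.03, 0.963 and 1.06 in IPC and 0.973, 1.03, 0.999, 1.03 and 0.977 in NSC. The desc median exceeded it at 2 of 5 ages in IPC and at 1 of 5 in NSC. By mean log2 activity, averaged over ages, desc minus asc was 0.08 in IPC and -0.02 in NSC, and desc minus unc was 0.02 in IPC and -0.02 in NSC. These are differences of pooled columns, given without a test.

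The authors' adjusted p-value asks whether an element lies above the Scrambled controls of its column, and an element is said to be called below where that p is under 0.05. In IPC the share of desc elements called, from E13 to E17, was 17.9%, 8.55%, 13.7%, 14.3% and 12.9%. Over all elements that are not Scrambled the shares in the same order were 19.6%, 11.3%, 14.9%, 16.1% and 18.7%. In NSC the share of desc elements was 12.5%, 11.0%, 8.14%, 16.9% and 6.66%, against 15.3%, 14.7%, 12.5%, 19.4% and 13% of all elements that are not Scrambled. The desc share was thus below that background in each of the 10 columns.

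Scrambled sequences were called almost as often. Their share in IPC was 15.7%, 6.66%, 11.1%, 12.4% and 10.3% at E13 to E17, and in NSC 13.3%, 9.77%, 8.11%, 12.9% and 6.16%. The desc share exceeded the Scrambled share in all 5 IPC columns and in 4 of 5 NSC columns, NSC at E13 being the exception. The gap was widest in NSC at E16, at 16.9% of desc elements and 12.9% of Scrambled. A call in 1 column therefore separates desc elements from controls only weakly, and 751 of 1129 desc elements (66.5%) had at least 1 call in the 10 columns, against 628 of 996 controls (63.1%) and 73.7% of all elements that are not Scrambled. The share was 73.8% among asc and 70.2% among unc elements.

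**Figure D2:**
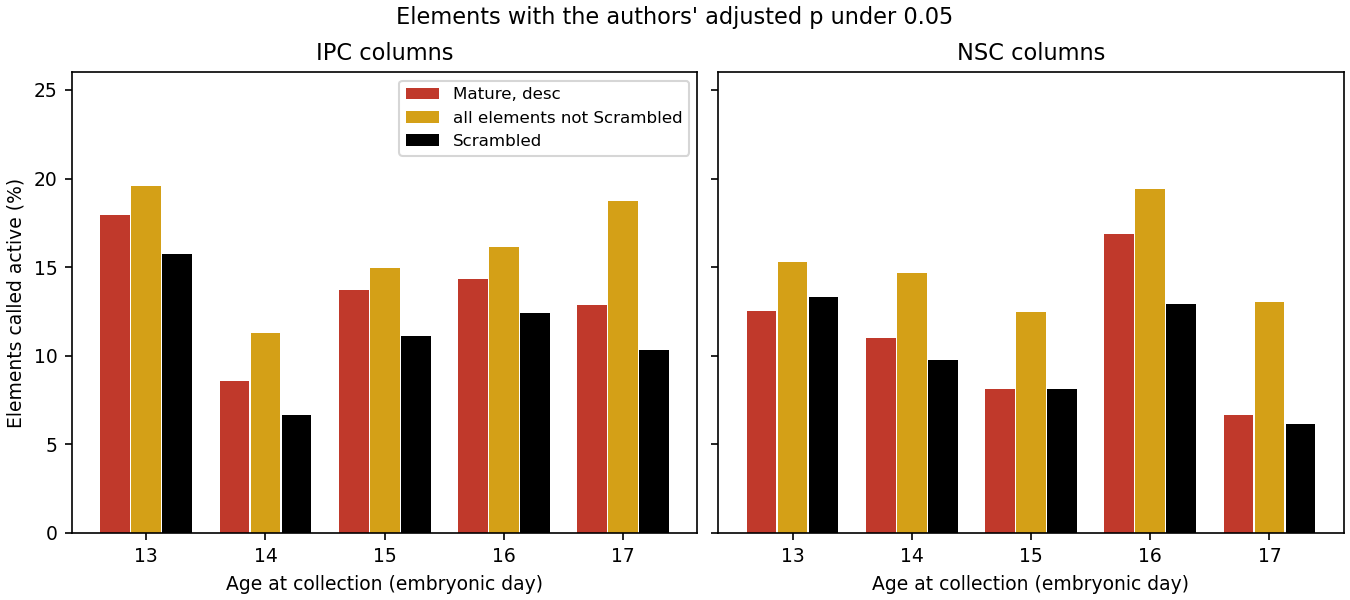
Share of elements with the authors' adjusted p under 0.05 (%) against age at collection, for IPC (left) and NSC (right). Bars stand for desc elements, all elements that are not Scrambled (desc included), and Scrambled controls. Desc bars lie below those of all elements that are not Scrambled in 10 of 10 columns. They lie above those of Scrambled in every column but NSC at E13.

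Repeated calls were rare. In at least 3 of the 5 IPC columns, 22 desc elements were called (1.95%, 95% Wilson interval 1.29 to 2.93), against 5% of all elements that are not Scrambled. In at least 3 of the 5 NSC columns the number was 19 (1.68%, 1.08 to 2.61), against 4.66%. The intervals cover the sampling of elements only and test no difference. The shares of asc elements were 1.87% in IPC and 2.80% in NSC, those of unc elements 2.44% and 2.51%, and those of Scrambled 1.20% (0.691 to 2.09) and 1.31% (0.764 to 2.22). Over both cell types, 12 desc elements (1.06%, 0.609 to 1.85) were called in at least 5 of the 10 columns, against 1.25% of asc elements, 1.22% of unc elements, 0.301% of Scrambled (0.102 to 0.882) and 3.38% of all elements that are not Scrambled. With a call defined instead as a value above the limit that 2.5% of Scrambled exceed in each column, at least 3 of 5 columns were reached by 0.0886% of desc elements in IPC and 0.177% in NSC, against 0% of Scrambled in both and 0.635% and 0.336% of all elements that are not Scrambled. By the authors' p, no desc element was called in all 5 columns of a cell type, against 0.252% of all elements that are not Scrambled in IPC and 0.0933% in NSC. The most calls of a desc element over the 10 columns was 6, reached by 2 elements (0.177%), while 1.06% of all elements that are not Scrambled had at least 6 and the most for a control was 5.

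A few desc elements were called in several columns. Of the desc elements, 1030 had a value in all 10 columns. The elements named are taken from these, except those named below as the highest of a column. Their mean log2 activity over the columns had a median of 0.24 and reached 1.83, while that of 955 complete Scrambled controls had a median of 0.22 and reached 1.30. Above a limit that 2.5% of the controls exceed by construction lay 38 desc elements (3.69%), against 4.41% of asc, 4.48% of unc and 9.74% of all elements that are not Scrambled. Below the matching lower limit lay 25 desc elements (2.43%), against 3.31% of asc, 2.41% of unc and 1.74% of all elements that are not Scrambled.

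Mature_neurons_905, Mature_neurons_996 and Mature_neurons_1127 were called in 4 columns of 1 cell type and are singled out here after their values had been seen. At least 4 IPC columns were reached by 2 desc elements (0.177%), against 1.44% of all elements that are not Scrambled, and at least 4 NSC columns by 1 (0.0886%), against 0.859%. Among Scrambled, 0 controls reached 4 IPC columns and 1 reached 4 NSC columns. Mature_neurons_905 stood at 3.88, 2.40, 11.3, 11.6 and 1.03 in IPC at E13 to E17 and at 13.3, 1.96, 2.27, 1.36 and 0.881 in NSC. It was above the Scrambled median in 9 of 10 columns and called in 4 IPC columns and 1 NSC column. Its IPC values at E15 and E16 lay above the limit that 2.5% of Scrambled exceed, 5.72 and 7.71 in these columns. Those at E13 and E14, though called, lay below that limit (8.04 and 3.03). Mature_neurons_996 stood at 14.7, 0.848, 4.07, 17.6 and 6.60 in IPC and at 72.5, 0.433, 0.930, 0.142 and 1.88 in NSC. Its IPC values thus lay above 4 at every age but E14, while in NSC it was high at E13 alone. Of the IPC values above 4, that at E15 lay below the same limit (5.72) and the others lay above it. Mature_neurons_1127 stood at 5.41, 0.619, 1.72, 34.4 and 0.655 in IPC and at 14.6, 5.36, 5.83, 0.578 and 2.14 in NSC. It was called in 4 NSC columns, all but E16, which was the age of its highest IPC value. Its NSC value at E17 lay below the limit there (2.64), and those at E13 to E15 lay above theirs.

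The highest mean log2 activity, 1.83, was that of Mature_neurons_1175, at 46.9, 0.703, 4.47, 1.25 and 5.69 in IPC and at 14.4, 3.60, 0.740, 3.85 and 1.21 in NSC. It exceeded the Scrambled median in 8 of 10 columns, and both of its highest values came from E13. Mature_neurons_697 followed at 1.80, with 28.8, 1.68, 0.704, 15.0 and 0.979 in IPC and 0.423, 1.93, 5.08, 12.4 and 5.68 in NSC. At E16 it was high in both cell types, and at E13 in IPC alone. Mature_neurons_370 had the steadiest activity of the 10 highest, above the Scrambled median in 10 of 10 columns, at 10.7, 1.06, 1.26, 1.62 and 3.97 in IPC and 3.38, 1.62, 2.75, 3.18 and 2.08 in NSC. Mature_neurons_583, above it in 9 of 10 columns, stood at 0.978, 1.76, 1.14, 2.42 and 6.98 in IPC and at 5.10, 1.46, 6.10, 3.59 and 1.11 in NSC.

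Mean activity of some of the 10 highest rested on 1 column. Mature_neurons_396 was at 72.5 in IPC at E16 and Mature_neurons_45 at 74.8 in the same column. Without its highest column, each element being ranked again in that way, the mean log2 activity of Mature_neurons_396 was 1.03 instead of 1.55 (rank 11) and that of Mature_neurons_45 was 0.84 instead of 1.38 (rank 19). The other 8 kept ranks 1 to 10, with Mature_neurons_905 first at 1.48. Mature_neurons_214 was high in 3 IPC columns, at 7.77 (E13), 25.2 (E15) and 22.6 (E16), but was at 0.904 and 0.430 in IPC at E14 and E17 and between 0.473 and 3.48 in NSC.

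**Figure D3:**
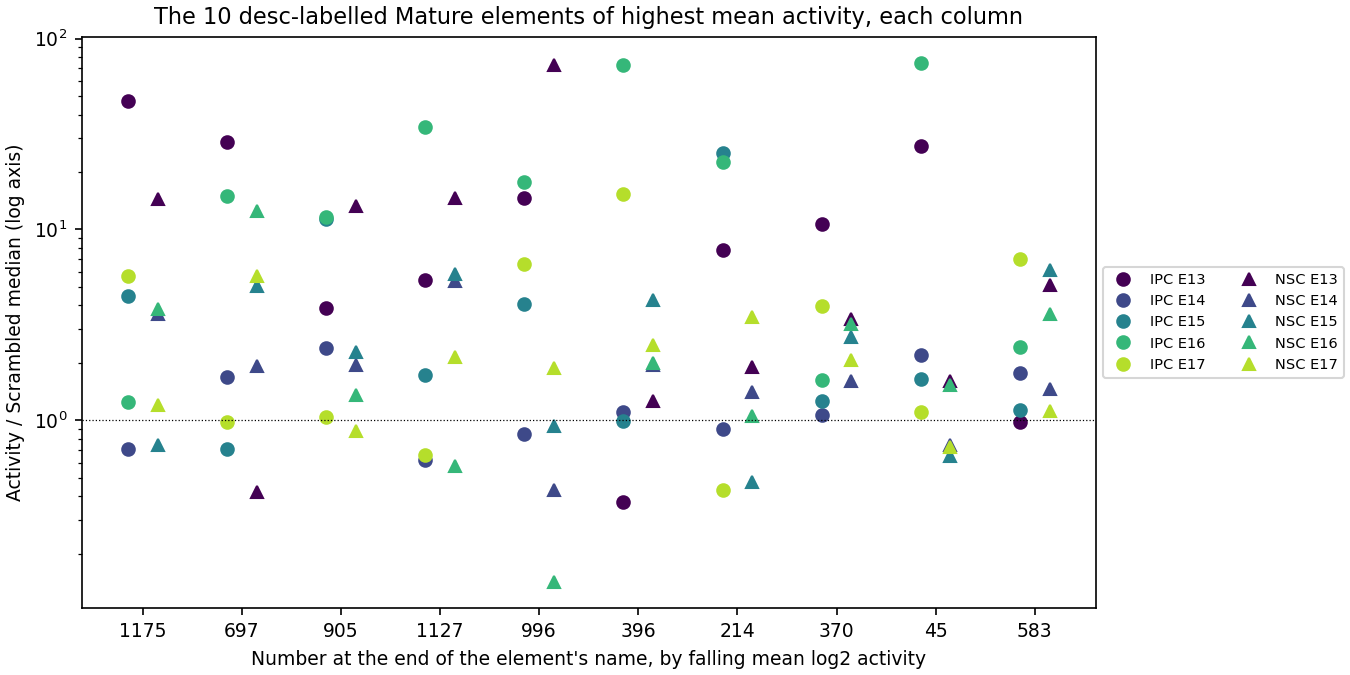
Activity relative to the Scrambled median (log axis) of the 10 desc elements of highest mean log2 activity, 1 point per column, with IPC (circles) left of NSC (triangles) for each element and colour for age. Every element but Mature_neurons_370 has at least 1 column below 1.

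The single highest desc value of each column belonged to 10 different elements. Mature_neurons_716 reached 243 in IPC at E13, yet its median over the 7 other columns with a value was 0.374. Mature_neurons_736 reached 121 in NSC at E13 against a median of 0.882 over its 9 other columns. In 9 of the 10 columns the highest element had a median below 2 elsewhere. The exception was Mature_neurons_944, at 36.3 in IPC at E14 and 3.57 as the median of only 2 other columns. A median hides single high values, and Mature_neurons_1078, the highest in NSC at E14 at 40.0, reached 51.5 in another column, and Mature_neurons_411, the highest in IPC at E15 at 47.4, reached 8.52 elsewhere and was called in 4 columns.

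Across the 1030 complete desc elements, Spearman's rho between columns had a median of 0.03 over the 45 pairs of columns, from -0.07 to 0.16. Among Scrambled controls the median was 0.02, among asc elements 0.06, among unc elements 0.04 and among all elements that are not Scrambled 0.08. Between the mean over odd and the mean over even ages rho was 0.10 across desc elements, 0.08 across Scrambled and 0.21 across all elements that are not Scrambled. These are descriptions across elements that share the plasmid pool and the columns, and elements are not independent replicates. The order of desc elements in 1 column thus said little about their order in another.

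Among complete desc elements the least active were Mature_neurons_774, Mature_neurons_300 and Mature_neurons_586. Mature_neurons_774 had the lowest mean log2 activity, -1.12, with 0.386, 0.201, 0.435, 0.728 and 0.0481 in IPC and 1.23, 0.252, 0.0895, 0.372 and 0.930 in NSC. It exceeded the Scrambled median in 1 of 10 columns. Mature_neurons_300 did so in 1 column too, at 1.86 in IPC at E14, with its other 9 values between 0.205 and 0.615. The lowest mean of a complete Scrambled control was -1.03, so that 1 complete desc element lay below every complete control by this measure. Incomplete elements were left out of this ranking.

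The cell types were compared element by element with limma on the log2 values of the 10 columns, with age as a block. The 5 ages stand in for replicates, so a p from this fit measures the spread between pooled columns of different ages, not between embryos. Of the elements that are not Scrambled 0% passed an adjusted p under 0.05 (0 of 10841 with the controls included, lowest adjusted p 0.684), and 749 of the 10841 had an unadjusted p under 0.05. Among the desc elements 25 (2.43%) had an unadjusted p under 0.05 with IPC above NSC and 21 (2.04%) with NSC above IPC, against 3.87% and 3.23% of all elements that are not Scrambled. Among Scrambled the shares were 2.30% and 2.62%. Since 0% passed the adjusted threshold, no desc element can be said to differ between the cell types by this fit.

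The median desc element had an IPC minus NSC difference of 0.10 (log2), against 0.03 for asc elements, 0.06 for unc elements, 0.04 for Scrambled and 0.03 for all elements that are not Scrambled. From E13 to E17 the desc median was 0.33, -0.01, 0.09, -0.14 and 0.05. The Scrambled medians at these ages, 0.29, -0.01, -0.01, -0.11 and 0.01, had the same sign at 4 of the 5 ages, E15 being the exception. The largest positive value, at E13, and the negative value at E16 were thus present in the controls too. IPC activity was above NSC activity at all 5 ages in 41 desc elements (3.98%) and NSC above IPC in 33 (3.20%), against 3.04% in each direction for Scrambled and 4.51% and 3.87% for all elements that are not Scrambled.

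Among elements with IPC above NSC at every age, Mature_neurons_45 had the largest mean difference, 2.55 ± 0.74 (SE from limma, adjusted p = 0.684). Its IPC values were 27.3, 2.19, 1.64, 74.8 and 1.10 and its NSC values 1.60, 0.738, 0.650, 1.52 and 0.725. The groups overlap, since its IPC value at E17 lies below its NSC values at E13 and E16. Mature_neurons_826 was at 11.8, 1.25, 0.953, 3.65 and 10.3 in IPC, against 0.283, 0.983, 0.443, 1.25 and 1.06 in NSC, a difference of 2.17 ± 0.69 (limma, adjusted p = 0.684). Mature_neurons_1131 was at 1.62, 1.01, 4.94, 4.22 and 3.65 in IPC, against 0.527, 0.640, 1.22, 0.715 and 1.73 in NSC, and was called in 3 IPC columns and in 0 NSC columns. The mean differences of Mature_neurons_189, Mature_neurons_706 and Mature_neurons_1131 were 2.03, 1.52 and 1.49. In all 5 of these elements the highest value came from an IPC column, which their selection fixes in advance.

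In the other direction Mature_neurons_1031 had a mean IPC minus NSC difference of -2.35 ± 0.51 (limma, adjusted p = 0.684). It stood at 0.171, 0.372, 0.318, 0.109 and 0.324 in IPC, against 2.70, 0.863, 3.55, 0.632 and 2.15 in NSC. Its lowest NSC value lay above its highest IPC value, and no IPC value reached the Scrambled median. Mature_neurons_128 stood at 0.112, 1.79, 0.00500, 0.246 and 0.285 in IPC, against 0.596, 6.96, 1.25, 2.56 and 0.424 in NSC (difference -2.14). The differences of Mature_neurons_228 (-2.00) and Mature_neurons_458 (-1.83) rested largely on NSC at E13, where they were at 106 and 57.8 while their other NSC values lay between 0.584 and 3.07. Mature_neurons_66 had a difference of -1.81, with 6.37 at E13 and 3.80 at E16 as its high NSC values.

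With activity scaled to the Scrambled median, the median slope of desc elements over all ages was not negative in either cell type. Their mean slope was -0.01 log2 per day in IPC and 0.02 in NSC, against -0.02 and -0.002 for Scrambled. Median slopes were not computed with activity scaled to the median of all elements that are not Scrambled. These are descriptions without a test, and what the label desc means is not given. The median slope of desc elements was 0.003 log2 per day in IPC and 0.05 in NSC, against -0.01 and 0.03 for Scrambled, -0.05 and -0.04 for asc elements, 0.001 and 0.02 for unc elements, and 0.02 and 0.05 for all elements that are not Scrambled. E17 lay below E13 in 518 of 1030 desc elements (50.3%) in IPC and in 482 (46.8%) in NSC, against 51.7% and 48.4% of Scrambled. Both late ages, E16 and E17, lay below both E13 and E14 in 16.5% of desc elements in IPC and 14.7% in NSC, and above both in 16.8% and 20.2%. These shares were near those of all elements that are not Scrambled, at 16.5% and 14.4% below and 19.0% and 19.5% above, and of Scrambled, at 16.2% and 15.7% below and 17.3% and 17.5% above. Among asc elements late ages lay below early ones more often than above, at 19.9% and 14.3% in IPC and at 16.2% and 14.0% in NSC.

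The slopes depended on single ages, each of which is 1 pooled column per cell type. With 1 age left out the desc median slope in IPC ran from -0.05 without E17 to 0.05 without E13, so its sign is not settled. In NSC it stayed above 0, from 0.02 without E13 to 0.09 without E17, and that of Scrambled from 0.01 to 0.06. The asc median slope stayed below 0 in both cell types, from -0.07 to -0.01 in IPC and from -0.05 to -0.01 in NSC.

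**Figure D4:**
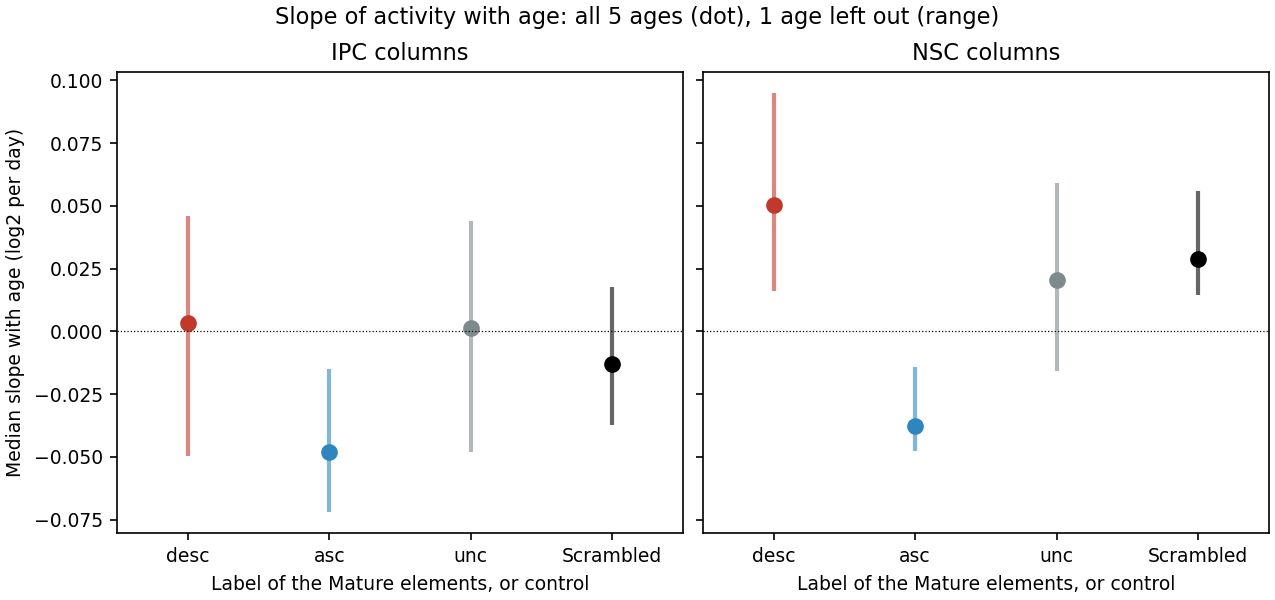
Median slope of log2 activity per day for the 3 labels of the Mature class and for Scrambled, in IPC (left) and NSC (right). Dots use all 5 ages and bars span the lowest and highest median with 1 age left out. The desc bar crosses 0 in IPC and lies above 0 in NSC, and the asc bar lies below 0 in both.

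By limma, 0% of elements had a slope past an adjusted p of 0.05 in NSC (lowest adjusted p 0.671, 758 of 10841 with an unadjusted p under 0.05) and 0% in IPC (0.622, 742 unadjusted). The slopes also did not differ between cell types in any element past that threshold (0% called, lowest adjusted p 0.774, 695 unadjusted). In IPC, 20 desc elements (1.94%) had an unadjusted p under 0.05 with a positive slope and 33 (3.20%) with a negative one, against 2.96% and 3.98% of all elements that are not Scrambled. In NSC the numbers were 30 (2.91%) and 35 (3.40%), against 3.41% and 3.54%. For the IPC slope minus the NSC slope they were 22 (2.14%) and 37 (3.59%), against 2.86% and 3.56%. The Scrambled shares were 2.30% and 3.56% in IPC, 2.62% and 4.82% in NSC, and 2.83% and 3.46% for the difference. At this unadjusted threshold negative slopes outnumbered positive ones among the desc elements in IPC and in NSC, as they did over the table. These counts moved with single ages in desc elements, in Scrambled and in all elements that are not Scrambled. For the IPC slope the share of desc elements under the threshold was 3.93% without E13 and 10.2% without E17, against 4.09% and 10.3% of all elements that are not Scrambled. For the NSC slope it was 1.53% without E13 and 11.3% without E17, against 1.80% and 12.3%. For the difference of slopes it was 2.11% without E13 (22 of 1044, against 250 of 9987 elements that are not Scrambled) and 10.6% without E17, against 10.6%. Without E17 the Scrambled shares were 8.16%, 12.3% and 10.4% in the same order. In each fit with 1 age left out, 0 desc elements passed the adjusted threshold.

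The steepest negative slopes in IPC are given first, among desc elements whose late ages both lay below E13 and E14. The elements with these slopes had 1 very high early value or a late value far below the Scrambled median. In IPC Mature_neurons_541 stood at 78.9, 1.01, 1.28, 0.0650 and 0.327 (slope -1.78 ± 0.47 per day, limma adjusted p = 0.622), and its NSC values were 2.45, 0.876, 0.695, 0.250 and 3.07. Mature_neurons_550 stood at 3.89, 4.60, 1.98, 0.0926 and 0.281 in IPC and at 3.48, 0.279, 0.331, 0.133 and 0.544 in NSC. Mature_neurons_550 was thus lower late than early in IPC, and highest at E13 in NSC. Mature_neurons_1017 had a slope of -1.27 in IPC, with its highest value of 3.31 at E13, and 0.79 in NSC, where it was lowest at E13.

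In NSC Mature_neurons_122 had the steepest negative slope, -1.80 ± 0.42 per day (limma, adjusted p = 0.671), with 112, 6.47, 2.23, 2.04 and 0.286 in order of age. Each age was below the one before. Its IPC values, 3.24, 1.24, 0.288, 6.37 and 0.222, showed no such order. Mature_neurons_655 was at 9.67, 11.6, 2.52, 0.389 and 0.404 in NSC and at 0.729, 0.0441, 0.692, 6.87 and 3.35 in IPC. Its slopes had opposite signs, -1.31 in NSC and 0.97 in IPC, and their difference of 2.28 ± 0.53 had a limma adjusted p of 0.774.

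Positive slopes of similar size occurred as well. Mature_neurons_444 stood at 0.187, 0.634, 6.11, 1.85 and 15.8 in IPC (slope 1.30 ± 0.35, limma adjusted p = 0.622), and at 4.93, 2.93, 0.276, 0.937 and 1.10 in NSC. Mature_neurons_396 had a slope of 1.60 in IPC, with 0.373 at E13 and 72.5 and 15.4 at E16 and E17. Mature_neurons_682, with a slope of 1.25, was at 0.424, 0.405 and 0.296 at the first 3 ages in IPC and at 6.98 and 10.6 at the last 2. In NSC the steepest positive slopes were 1.33 for Mature_neurons_448, 1.13 for Mature_neurons_142 and 1.01 for Mature_neurons_404, and all 3 had their highest value at E16, at 9.08, 21.8 and 7.30.

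Elements that lacked a value in some columns had the more extreme values. Of the 1129 desc elements, 99 (8.77%) lacked a value in at least 1 column, and 1 of them in all 10. The share was 15.3% of asc elements, 11.7% of unc elements, 4.12% of Scrambled and 7.72% of all elements that are not Scrambled. In single columns 17 to 47 desc elements had no value. Of the values of incomplete desc elements, 24.2% lay below the lower Scrambled limit of their column and 9.17% above the upper limit, against 2.58% and 3.16% for complete desc elements. In Scrambled the shares were 19.1% and 5.64% for incomplete elements, and 1.98% and 2.43% for complete ones.

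The SD of log2 activity was 1.89 over the values of incomplete desc elements and 1.11 over those of complete ones. Calls followed the same order, at 19.1% of the values of incomplete and 11.8% of those of complete desc elements, at 16.3% and 10.5% in Scrambled, and at 21.3% and 15.2% over all elements that are not Scrambled. Of the highest elements per column, Mature_neurons_716, Mature_neurons_944, Mature_neurons_411, Mature_neurons_1078, Mature_neurons_402 and Mature_neurons_90 lacked a value in at least 1 column. The depth of these elements was not used here, and its part in their values was not tested.

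**Figure D5:**
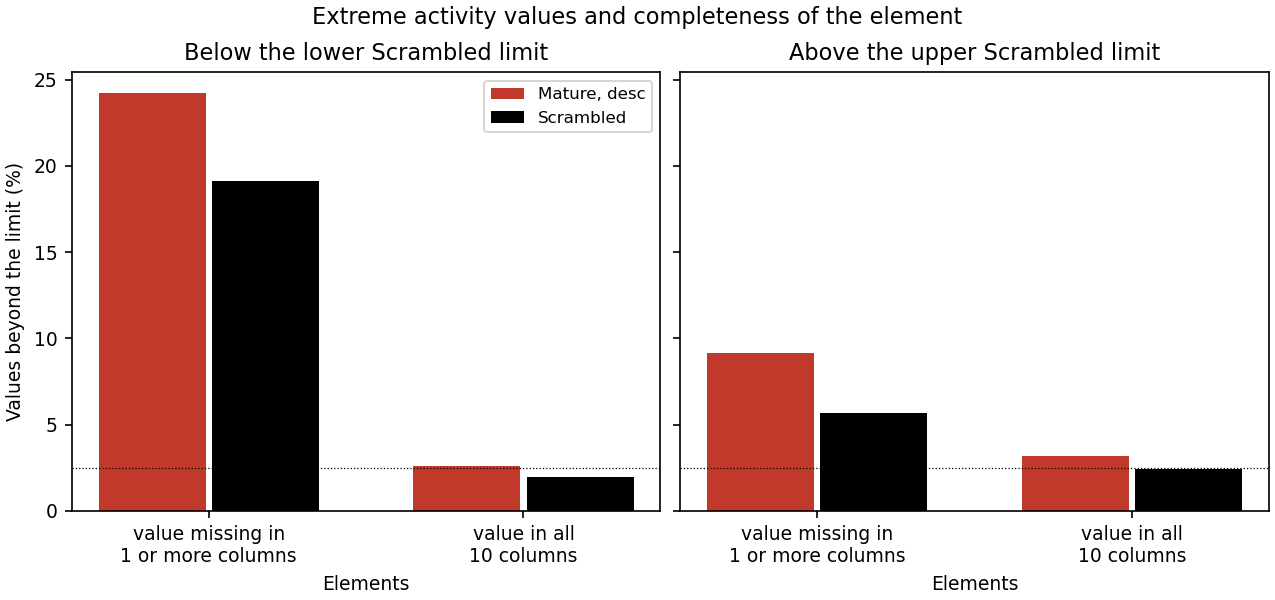
Share of activity values (%) below the lower (left) and above the upper (right) Scrambled limit of their column, for desc elements and Scrambled, split by whether the element has a value in all 10 columns. The dotted line marks 2.5%, the share of controls beyond each limit by construction. Incomplete elements lie above complete ones in both sets and on both sides.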

How the data were processed

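The authors pooled 48 libraries of 24 biological samples by cell type and age. The deposited table holds a statistic, a MAD score and a p-value for each of the 10 resulting columns. Per the submitters' processing notes, cutadapt and mm10 were used, and no label or header names the counting or the tool behind the statistic. The authors' statistic is per the file headers and values a score that is never negative. The authors' deposited p-value equals an upper-tail normal p of their MAD score against Scrambled, adjusted within the column by Benjamini-Hochberg (largest difference 6.11e-15). The authors' MAD score was recomputed from the statistic (largest difference 4.66e-12).

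The statistic was scaled so that the Scrambled median is 1 in every column, and log2 was taken with a pseudocount of 0.1. Elements with a value in all 10 columns (10841) entered limma 3.58.1 (R 4.3.3), with Benjamini-Hochberg adjustment over all of them, called at 0.05. The fits were checked on simulated data, with each column drawn independently from Scrambled values, for whether the mean estimate recovered planted shifts. The share of real differences that the fits would miss was not taken from this check. Samples were grouped from the labels, and depth is unknown. Class and label values are descriptions with no test, and Wilson intervals are at 95%.

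Elements named by rule are complete desc elements. They are the 10 highest and 3 lowest means and the 5 largest differences in each direction of 1 sign at 5 ages. For either cell type they include the 3 steepest positive and 3 steepest negative slopes with E16 and E17 on 1 side of E13 and E14. Elements called in at least 4 columns of 1 cell type, and elements highest in a column, are named besides. The latter may be incomplete. The members, the lists and these rules were chosen with earlier results of these data known. Alternatives were other thresholds, scalings, pseudocounts and filters, and leaving out 1 age.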

Additional observations from a re-analysis of the deposited data

How the results depend on the processing

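No paired analysis was possible because each column stands for a cell type and age and carries no replicate number. The age block pairs columns of 1 age, not samples. Without it 37 of 1030 desc elements had an unadjusted p under 0.05 (limma) for IPC minus NSC. Scrambled had 48 of 955, and all elements that are not Scrambled had 665 of 9886. Of the main results, which include the median slopes of asc and unc elements, 101 alternative values stayed within a margin and 23 moved. The margin was 1.5 times for counts and the Wilson interval for shares. It was the SD over ages for median activity and the error over elements for median slopes. Adjusted counts of 0 that stayed at 0 are among the 101. Counted above the Scrambled upper limit in place of the authors' p, the share of desc elements reaching at least 3 of 5 columns was 0.0886% in IPC and 0.177% in NSC, and with an adjusted p under 0.01 it was 0.531% in NSC, below the 0.703% of Scrambled (2.72% of all elements that are not Scrambled), which turns the order of desc and Scrambled at 0.05. Divided by the median of all elements that are not Scrambled, the mean over ages of the log2 desc median was -0.0813 in IPC and -0.157 in NSC. With a pseudocount of 1 the median slope of desc elements in NSC was 0.0199 and that of asc elements in IPC -0.0123. With 1 age left out, the number of desc elements with an unadjusted p under 0.05 ran from 16 (without E13) to 117 (without E17) for the slope in NSC, from 41 to 105 for that in IPC and from 22 to 109 for their difference. Scrambled ran from 20 to 118, 34 to 78 and 14 to 99 in the same order, and 0 desc elements passed the adjusted threshold in each of these fits. Median slopes then ran from 0.0161 to 0.0949 (desc, NSC), -0.0159 to 0.0590 (unc, NSC), -0.0496 to 0.0459 (desc, IPC), -0.0719 to -0.0150 (asc, IPC) and -0.0480 to 0.0441 (unc, IPC), with E13 or E17 left out at the ends. The cause was not tested. Depth is unknown, and 1 pooled value per column limits what any of these comparisons can resolve. Of the values of single columns and elements, 28 moved and 12 did not.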
